A study of Mus musculus with 2 samples.

Results

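Basal-like airway cells were 88 of the 15637 cells kept from the Pclaf KO library and 7 of the 30187 kept from the Pclaf WT library, or 95 of 45824 in all. A cell was counted as basal-like when at least 2 of 5 basal cell genes (Krt5, Krt15, Trp63, Krt14 and Krt17) had 1 or more unique molecular identifiers (UMIs, the count of distinct captured transcripts), Epcam or Krt8 was detected, Sftpc took under 5% of the UMIs, and none of Ptprc, Pecam1, Col1a2, Foxj1 and Muc5b was detected. Only barcodes with gene numbers between 200 and 5000, exclusive, and a mitochondrial share of UMIs below 20% were kept. The cells were thus chosen by the measured UMIs of these 13 genes, whose levels in them are given as a description. Comparisons rest mainly on other genes. Where Sftpc is set beside other groups, or cells are split by Krt5 and Trp63, the values remain descriptions of cells chosen by these genes.

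The study profiled lung epithelial cells of 8 to 10 week old mice, male by the study's methods, by droplet single-cell RNA sequencing of transcript 3' ends. Mice were Pclaf WT or Pclaf KO (germline loss of the gene for a PCNA-associated factor), both genotypes had received bleomycin, and lungs were taken 1 week later. The dose is 1.35 U/kg in the series description, and the study's text gives other doses. Cells were sorted as Cd31-, Cd45- and Epcam+, so endothelial and blood cells were to be removed by the sort, and the number of animals behind each library was not given in the sources used here. There was 1 library per genotype, and cells of 1 library are not replicates. Intervals are 95% intervals, cover counting error only, and say nothing of the spread between mice, and no p-value was computed.

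Basal cells are the stem cells of the pseudostratified airway epithelium. They sit on the basement membrane, hold on to it through hemidesmosomes, depend on the transcription factor p63 (Trp63), and give rise to secretory and ciliated cells. In the mouse they line the trachea and main bronchi and are rare deeper in the lung, although Krt5-positive cells are known to appear in the distal lung after severe injury.

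The libraries differed in depth and in the cells they held. The WT library had 30669 barcodes with 98171818 UMIs and the KO library 17172 barcodes with 111267567 UMIs, against 16000 cells per group stated to have been loaded. Kept cells had a median of 2127 UMIs in WT and 5957 in KO. Epcam or Krt8 was detected in 2746 kept WT cells and 9675 kept KO cells, although both were sorted for Epcam. The libraries shared 163 barcodes, none of them a basal-like cell. Pclaf itself had 3763 UMIs in kept WT cells (39.3 CPM, that is UMIs scaled to a total of 1000000) and 529 in kept KO cells (5.19 CPM). In the basal-like cells Pclaf was not detected in WT, where 0 UMIs allow up to 88.2 CPM, and had 2 UMIs in 1 KO cell (3.14 CPM, 0.380 to 11.3). The counted 3' ends may lie outside the deleted sequence, so these counts do not check the genotype. Xist, expressed from the inactive X of females, went against the stated sex in both libraries. It was found without Y-linked transcripts in 39 of the 88 KO basal-like cells, Y-linked transcripts without Xist in 26, both in 3 and neither in 20, and in the 7 WT cells the numbers were 1, 3, 0 and 3. In ciliated cells Xist alone was found in 491 of 920 in KO and 33 of 93 in WT. The cause was not tested.

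Basal-like cells made up 0.563% of kept KO cells (Clopper-Pearson interval 0.452 to 0.693) and 0.0232% of kept WT cells (0.00932 to 0.0478). The shares of the airway cells of each library had overlapping intervals. The 88 KO cells were 5.84% (4.71 to 7.14) of 1508 airway cells, and the 7 WT cells were 4.14% (1.68 to 8.35) of 169, so that a difference in this share was not detectable at this depth. Airway cells here are the basal-like cells plus 394 club, 106 goblet and 920 ciliated cells in KO, and 55, 14 and 93 in WT. These gates rest on Scgb1a1 (club), Muc5b (goblet) and Foxj1 (ciliated) with further genes of each type, and their own genes are not read as results. Another 459 KO cells with high Krt8 and alveolar repair genes served as a further comparison, because transitional alveolar cells of injured lung share some keratins with basal cells. Basal-like KO cells held 2040 to 19908 UMIs (median 6104) and a median of 2405 genes, with 5.70% mitochondrial UMIs. Ribosomal protein genes took 17.7% of their UMIs, against 8.85% in club, 7.12% in goblet, 4.84% in ciliated and 13.4% in Krt8-high cells.

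Krt15 was the most widely detected of the 5 selecting genes and Krt14 the least. Krt15 (ENSMUSG00000054146), a type I keratin, was found in all 88 KO cells at 2785 CPM (2657 to 2918). Krt5 (ENSMUSG00000061527), the type II keratin that names basal cells, was found in 70 cells at 591 CPM (532.7 to 654). Trp63 (ENSMUSG00000022510) was also found in 70 cells, at 486 CPM (433 to 543). Krt17 (ENSMUSG00000035557), a keratin of stressed and appendage epithelium, was found in 56 cells at 353 CPM (308 to 402). Krt14 (ENSMUSG00000045545), the usual partner of Krt5, was found in only 4 of the 88 cells at 23.5 CPM (13.2 to 38.8), and 1 cell gave 11 of its 15 UMIs.

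**Figure D1:**
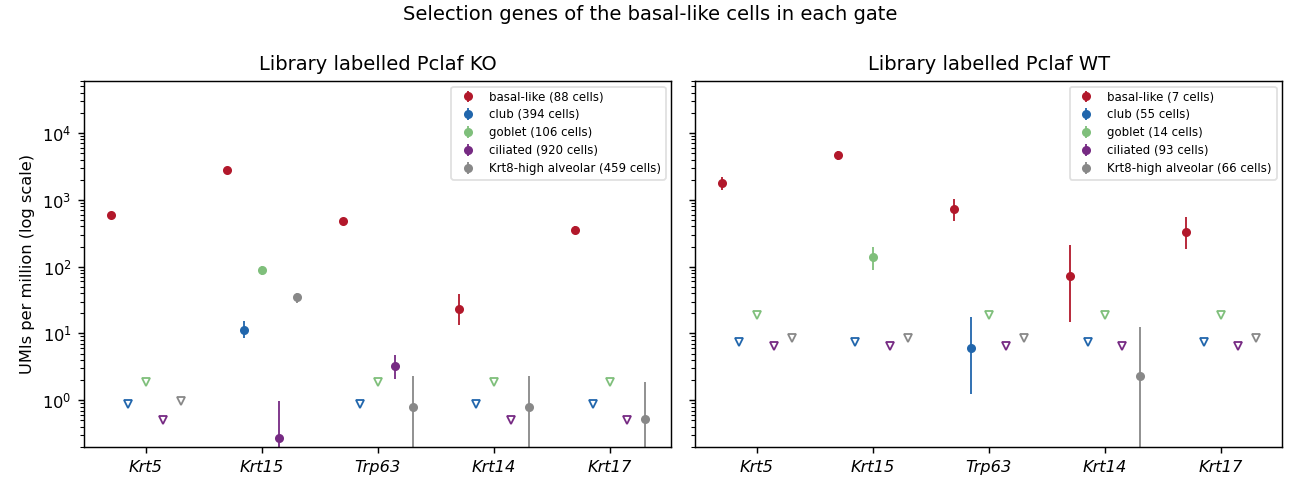
CPM (log axis) of the 5 selecting genes in the basal-like cells and in the club, goblet, ciliated and Krt8-high cells of each library. Points are the summed level with its 95% Poisson interval, and open triangles mark the upper limit where 0 UMIs were counted. Krt5 stands at 591 CPM in KO basal-like cells and has 0 UMIs in the KO club, goblet and ciliated cells.

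The other KO airway gates by their rule held cells with fewer than 2 of these 5 genes, which keeps the levels there low. Krt5, Krt14 and Krt17 had 0 UMIs in the KO club, goblet and ciliated cells together, a contrast that the gates themselves favour. Krt15 was at 88.3 CPM in goblet cells, where 14 of 106 cells had it, 11.4 in club cells and 0.27 in ciliated cells. Trp63 reached 3.24 CPM in ciliated cells, where 18 cells had a UMI, and 0.78 in Krt8-high cells. In the 7 WT basal-like cells Krt15 stood at 4616 CPM (7 cells), Krt5 at 1770 (6 cells), Trp63 at 718 (6 cells), Krt17 at 335 (5 cells) and Krt14 at 71.8 (1 cell).

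The Krt5 promoter is shown because Krt5 names these cells and because their transcription factor p63 binds p53-family motifs. The 250 bases before the annotated start of Krt5 (RefSeq, GRCm38.p6, chr15:101712906-101713155, minus strand) are given 5' to 3', with the p53-family half-site and the ATAAA of a TATA-like element in capitals. The half-site begins 95 bases and ATAAA 29 bases before the start.
Krt5: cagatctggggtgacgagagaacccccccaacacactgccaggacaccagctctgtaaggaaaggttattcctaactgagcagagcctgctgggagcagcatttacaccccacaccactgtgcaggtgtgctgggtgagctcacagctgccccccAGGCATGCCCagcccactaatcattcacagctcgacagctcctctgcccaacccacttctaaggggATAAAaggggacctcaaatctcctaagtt
A half-site, which reads the same on both strands, was present in 2341 of 32851 promoter windows of this length (7.13%). ATAAA, searched on the strand of the gene in the last 50 bases before the start and counted also where it is part of TATAAA, was present in 2159 (6.57%). These matches describe letters in the windows, not binding. The window of Krt14, another selecting gene, held no half-site and no ATAAA in its last 50 bases.

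How firmly a cell carried the selecting genes varied. Among the 88 KO cells, 22 had 2 of the 5 genes, 23 had 3, 40 had 4 and 3 had all 5. The most frequent combination was Krt5, Krt15, Trp63 and Krt17 in 39 cells, followed by Krt5, Krt15 and Trp63 in 12, Krt15 and Trp63 in 10, and Krt5 and Krt15 in 9. Krt5 and Trp63 were found together in 55 of 88 KO cells (62.5%, 51.5 to 72.6) and in 5 of 7 WT cells, and 3 KO cells had neither. Across the 88 cells Krt5 went with Aqp3 (Spearman's rho 0.44) and less with Krt17 (0.37) and Krt15 (0.26). Krt5 and Trp63 levels hardly went together (0.09), nor did those of Krt15 and Krt17 (0.03). These values describe cells that share 1 library, sparse counts and a choice by the selecting genes.

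Genes that did not enter the gate differed across its edge. Aqp3, an aquaglyceroporin of basal cells, stood at 601 CPM in cells with 2 selecting genes, 1175 with 3 and 1164 with 4. Just outside, in 38 KO cells with a single selecting gene that met every other condition, Aqp3 was at 99.8 CPM. Dapl1 was at 386 CPM in the cells with 2 genes and 55.4 in those with 1, and Abi3bp at 778 and 62.8. Scgb1a1, the main club cell secretoglobin, went the other way, with 6813 CPM in the cells with 2 genes and 120300 in those with 1, but a few cells carried both values. Without the 3 cells with the most Scgb1a1 UMIs in each set, they were 1362 and 12340 CPM. In Aqp3, Dapl1 and Abi3bp the cells with 2 selecting genes lay between those with 1 and those with 3 or 4.

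Single cells within the gate ranged widely. Krt5 ran from 0 to 2491 CPM with a median of 516, Krt15 from 147 to 11290 with a median of 2304, and Trp63 from 0 to 2119 with a median of 348. Aqp3 was detected in 82 of 88 KO cells (median 1032 CPM, highest 4216) and Abi3bp in 76 (median 1382, highest 5735). A single cell held at most 5.16% of the Krt5, Trp63, Aqp3, Dapl1 or Abi3bp UMIs, so that these sums did not rest on 1 cell.

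**Figure D2:**
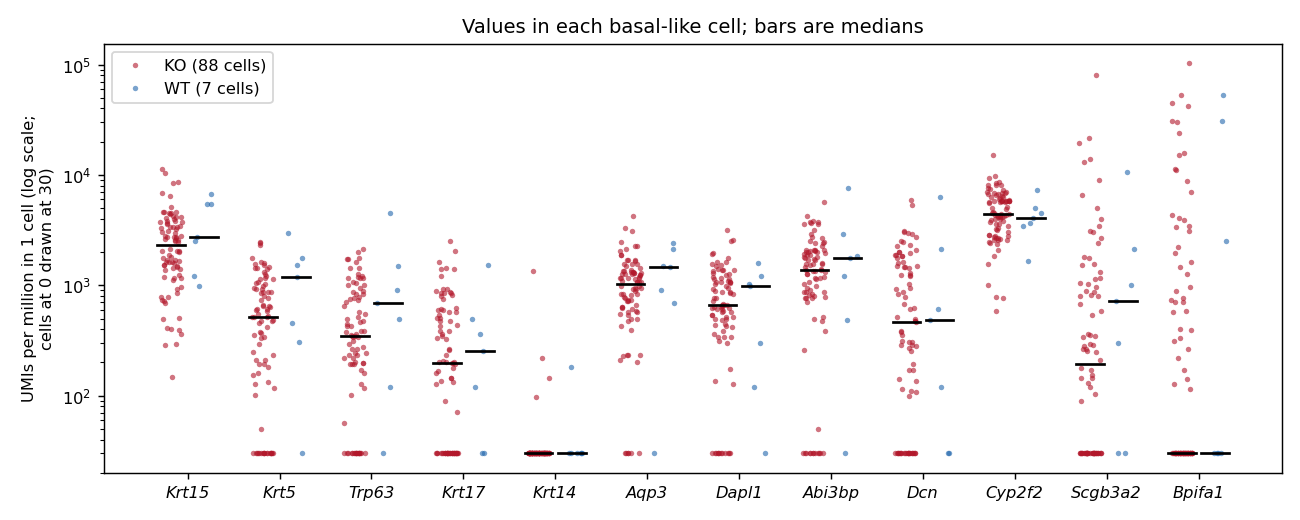
Level of 12 genes in each of the 88 KO and 7 WT basal-like cells, in CPM on a log axis, with cells at 0 drawn at 30 and bars at the medians. Krt15 is above 0 in every cell, with KO cells from 147 to 11290 CPM, while 46 of the 88 KO cells lie at 0 for Bpifa1.

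The comparison within the KO library asked which genes set basal-like cells apart from other airway cells. Levels were CPM of summed UMIs, and the 3 airway gates had equal weight. Of 14416 genes with at least 10 UMIs, 3897 (27.0%) were at least 2-fold higher in basal-like cells and 2125 (14.7%) at least 2-fold lower. The median gene was 0.46 higher on the log2 scale. Scgb1a1 stood at 434700 CPM in club cells and 388000 in goblet cells but 2553 in basal-like cells, and so left less of the total to the other genes in club and goblet cells. With edgeR's TMM factors, which set the scale by the bulk of the genes, the median gene moved to -0.20 and the counts to 1516 higher and 3206 lower. Counts with TMM scaling are therefore given beside each gene list, and list counts are to be read against these counts over all genes. The genes named below for the 15 highest and 10 lowest ratios were chosen for the size of those ratios. They were thus all but bound to keep their direction and stay past 2-fold under each alternative run, and did so. This does not hold for every gene named from the lists, as their counts with TMM show.

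The 15 highest ratios included genes of the extracellular matrix, of adhesion and of membrane proteins known from nerve cells. Abi3bp (ENSMUSG00000035258), a matrix protein, had 883 UMIs in 76 of 88 KO cells (1384 CPM, 1294 to 1478), against 0.95 CPM in club, 0.50 in goblet and 0.67 in ciliated cells, a log2 ratio of 10.93 (9.92 to 11.94). The 7 WT basal-like cells had Abi3bp at 1387 CPM. Dcn (decorin), a small leucine-rich proteoglycan better known from fibroblasts, was at 818 CPM (749.5 to 891.5) in 65 KO cells and at 741 in WT, and at no more than 1.62 in the other KO airway gates (9.43, 8.71 to 10.16). Col17a1, the transmembrane collagen of hemidesmosomes, was at 143 CPM in 44 cells (8.93, 7.06 to 10.80). Membrane proteins known from synaptic adhesion, Mdga2 (9.62), Tenm3 (8.70) and Adgrl3 (7.94), were also among the 15, from 35 to 46 cells each.

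Dapl1, a small protein of stratified epithelia, was at 707 CPM (643 to 775) in 76 KO cells and at 765 in WT, with a log2 ratio of 10.55 (9.28 to 11.82). Vsnl1, a neuronal calcium sensor, had a ratio of 11.27 (8.43 to 14.12) with 71 UMIs against 1. Trim29, a tripartite-motif protein, had 11.15 (8.30 to 13.99) with 65 UMIs against 1. Ccdc3 had 10.52 and the beta-defensin Defb1 10.03. Dlk2, an EGF-repeat protein related to Delta ligands, had 50 UMIs in basal-like cells and none in the other airway gates, at least 89.6-fold higher, and the transcript 4833423E24Rik had 54 UMIs and none, at least 96.7-fold higher. The transcript 4631405K08Rik had 7.75. Each of these named genes was also detected in at least 1 WT basal-like cell.

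Promoter windows were at hand for 8 of these 15 genes. None of the 8 held a half-site, and ATAAA stood in the last 50 bases for Dapl1 and for 1 window of Adgrl3. The Dapl1 window is shown as the counterpart of Krt5 among genes that did not choose the cells. It lies at chr2:59484403-59484652, plus strand (RefSeq, GRCm38.p6), with ATAAA in capitals 28 bases before the start.
Dapl1: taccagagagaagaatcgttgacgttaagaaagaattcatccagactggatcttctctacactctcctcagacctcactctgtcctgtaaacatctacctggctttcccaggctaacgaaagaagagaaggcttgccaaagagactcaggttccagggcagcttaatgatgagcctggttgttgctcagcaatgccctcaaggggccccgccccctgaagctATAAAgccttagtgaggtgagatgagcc

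**Figure D3:**
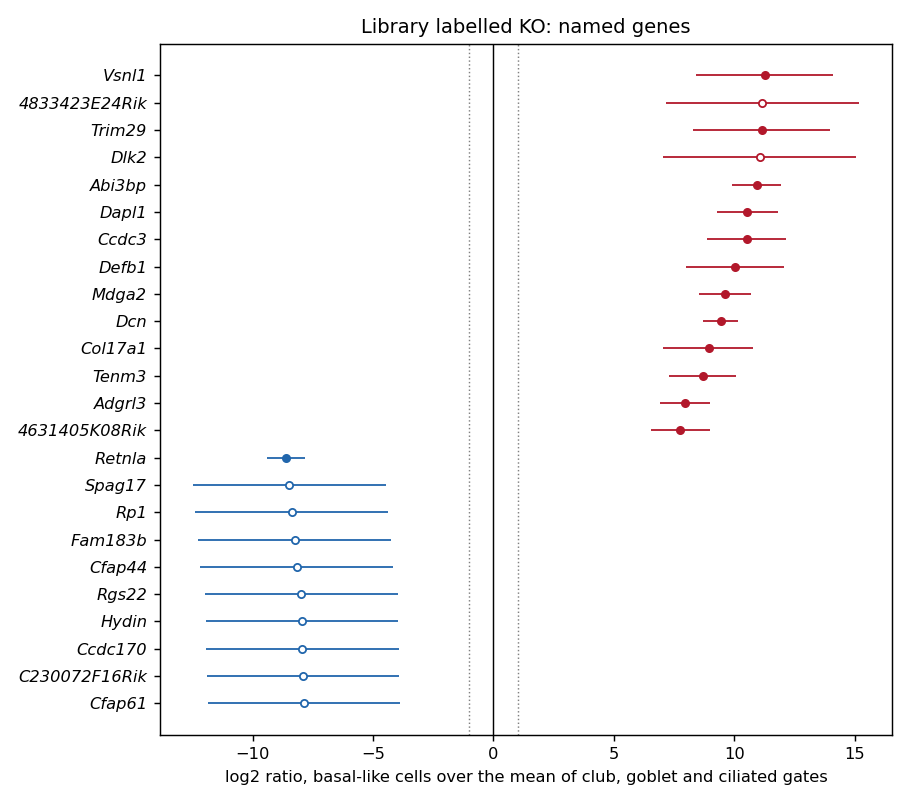
Log2 ratio with 95% interval of the named higher and lower genes, for KO basal-like cells over the mean of the KO club, goblet and ciliated gates. Open symbols mark genes with 0 UMIs on one side, where the plotted ratio depends on an added 0.5 UMI, and dotted lines stand at -1 and 1. Abi3bp lies at 10.93 and Retnla at -8.61.

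The 10 lowest ratios belonged to a secreted protein and to genes of ciliated cells. Retnla, the secreted resistin-like alpha, was at 20.4 CPM in basal-like cells, 9971 in club, 13380 in goblet and 596 in ciliated cells (-8.61, -9.40 to -7.83). Spag17, Rp1, Fam183b, Cfap44, Rgs22, Hydin, Ccdc170, C230072F16Rik and Cfap61 had 0 UMIs in the 88 cells, which makes Spag17 at least 59.5-fold and Cfap61 at least 38.8-fold lower than the mean of the airway gates. These 9 were at 543 to 832 CPM in the ciliated gate, and the basal-like gate had itself left out cells with Foxj1. Of 8 ciliated genes outside the ciliated gate, 7 were lower and 0 higher (also 7 and 0 with TMM).

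Most listed basal cell genes that the gate did not use were higher in basal-like cells. The list was chosen with earlier results of these data known, so it is no independent check of the label. Of 20 listed, 18 had the 10 UMIs needed. Of these, 16 were at least 2-fold higher and 1 lower, with a median log2 ratio of 3.44 (15 and 2 with TMM), beside 27.0% and 14.7% over all genes. Aqp3 was at 1014 CPM in KO and 1507 in WT basal-like cells, and at 0.95 in club, 14.6 in goblet and 0.27 in ciliated KO cells (7.59, 7.09 to 8.10). Fxyd3, a regulator of the sodium pump, was at 1346 CPM in 87 cells (3.31), Perp, a desmosome-associated p63 target, at 414 in 82 cells (3.57), and Cav1 (caveolin-1) at 354 in 62 cells (5.83). Ngfr, the p75 receptor used to sort basal cells, had 33 UMIs in 18 cells and none in the other airway gates, at least 59.1-fold higher, and Snai2 had 17 UMIs in 15 cells (8.21). Igfbp2 was the exception on the lower side, with 0 UMIs in basal-like cells and 79.8 CPM in ciliated cells, and Il33 had 5 UMIs, too few to tell it from the other gates (-0.10, -1.39 to 1.20). Against Krt8-high cells Aqp3 stood 8.12 higher on the log2 scale (lower bound 7.37). In summed level the 20 listed genes took 5729 CPM in basal-like KO cells, 7127 in WT, and 299 to 738 in the other KO airway gates.

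Most genes that fasten cells to the basement membrane and to each other were also higher. Of 12 hemidesmosome and laminin-332 genes, 11 were past 2-fold higher and none lower (6 and 0 with TMM), with a median of 1.78. Dst, the plakin that links keratin to hemidesmosomes, was at 527 CPM (3.65, 3.45 to 3.86), Lamb3, the laminin-332 beta chain, at 219 (4.19, 3.86 to 4.52) and Itgb4, the integrin of hemidesmosomes, at 282 (2.32, 2.09 to 2.56). Lamb3 was at 217 CPM in Krt8-high cells, level with basal-like cells. Lama5 fell short at 0.94 (0.52 to 1.36). Of 9 desmosome genes, 7 were higher and 1 lower (6 and 1 with TMM). Dsp (desmoplakin) stood at 257 CPM (2.47), Dsc2 at 84.6 (5.10), and Pkp1 and Dsc3 had 20 and 13 UMIs against none, at least 35.8 and 23.3-fold higher. Pkp2, a plakophilin known from simple epithelia and heart, was lower at 14.1 CPM (-1.26, -2.22 to -0.31).

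Keratins of simple epithelia were also present. Of 6 measured, 3 were higher and 1 lower (1 and 1 with TMM). Krt19 was at 1326 CPM (1.51) and Krt7 at 477 (1.58), while Krt18 was level with other airway cells at 390.3 CPM (-0.01, -0.20 to 0.17). In Krt8-high cells Krt19 was at 1127 CPM, Krt7 at 1101 and Krt18 at 2290. Hillock and squamous genes, which mark stratified patches of airway epithelium, were higher for 7 of 13 and lower for none (5 and 1 with TMM). Their summed level was 2487 CPM in KO basal-like and 5947 in KO Krt8-high cells. Ly6d was at 309 CPM but came from 26 cells (7.35), Krt4 at 116 CPM from 14 cells (5.69) and Krt13, the defining hillock keratin, had 7 UMIs in 3 KO cells (4.79) and 9 in 1 WT cell. Of the cornified-envelope genes, Ivl, Cnfn, Sprr1b and Sprr3 had 0 UMIs in KO basal-like cells, while Sprr2a3, of a family of near-identical copies, had 19 (and none in the other airway gates), Sprr1a 18 and Sbsn 5.

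**Figure D4:**
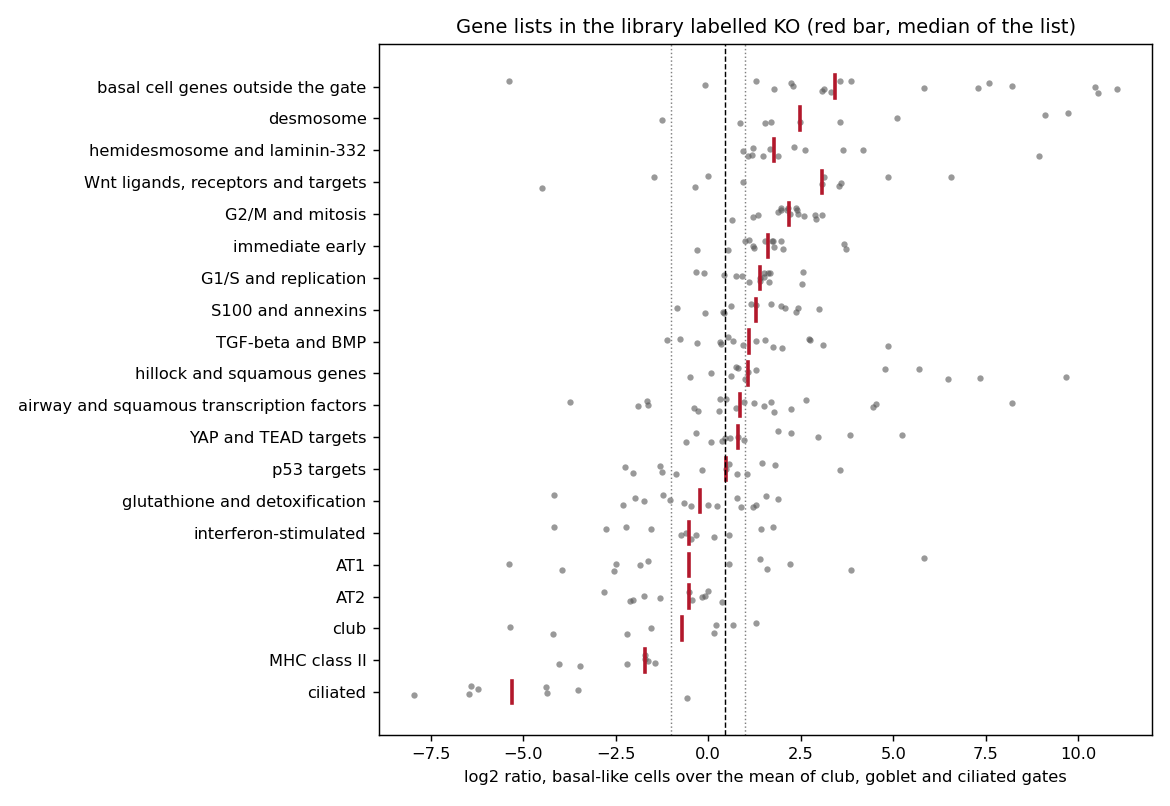
Log2 ratio of KO basal-like over other KO airway cells for each measured gene of 20 gene lists. Dots are genes, red bars are list medians, the dashed line is the median of all genes at 0.46 and dotted lines stand at -1 and 1. The median is 3.44 for basal genes outside the gate and -5.31 for ciliated genes.

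Notch genes, which steer basal cells toward secretory or ciliated fates, differed for some ligands and receptors and for 1 target. Of 3 measured ligands, Jag2 was at 102 CPM in 42 cells (2.17, 1.80 to 2.55) and Dll1 had 11 UMIs in 9 cells (5.40), while Jag1 was at 51.7 CPM (-0.75) and at 214 in ciliated cells, so that 2 were past 2-fold higher and 0 lower (2 and 1 with TMM). Of 4 receptors, 2 were higher and 1 lower (0 and 2 with TMM). Notch1 was at 108 CPM (1.75, 1.38 to 2.12), and Notch3 had 2 UMIs (3.14 CPM against 13.1 in club and 32.6 in goblet cells, -2.33, -4.35 to -0.31). None of 6 targets was higher and 1 was lower (also 0 and 1 with TMM). Hes1, the most abundant target, was at 269.6 CPM (0.50), and Nrarp was the lower one (3 UMIs, -1.90, -3.55 to -0.26).

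Egfr stood out by level among the EGF family genes of basal-like cells. Egfr, the EGF receptor, was at 223 CPM in 57 cells, against 1.91 in club, 15.1 in goblet and 59.1 in ciliated cells (3.13, 2.85 to 3.41), and was the one receptor of 4 past 2-fold (1 higher and 0 lower with either scaling), a share near the 27.0% of all genes. Of 7 ligands, 1 was higher and 3 lower (0 and 3 with TMM). Nrg1 (neuregulin-1) was at 157 CPM (1.18, 0.89 to 1.48), and Areg (amphiregulin) had 1 UMI against 278 CPM in ciliated cells (-6.14, -8.97 to -3.32).

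Wnt ligands, receptors and targets were higher for 6 of 11 measured genes and lower for 2 (the same counts with TMM). Wnt4 was at 360.5 CPM in 71 cells (3.07, 2.86 to 3.28), Wnt5b at 61.1 (4.86), and the R-spondin receptors Lgr6 and Lgr4 at 216 (3.53) and 62.7 (3.13). The Wnt target Axin2 had 0 UMIs in basal-like cells and 0.72 CPM in club, 0 in goblet and 0.81 in ciliated cells. Of 16 TGF-beta and BMP genes, 8 were higher and 1 lower (5 and 2 with TMM). Tgfb1 had 16 UMIs (3.09), Bmp7 15 UMIs (4.86), the integrin Itgav was at 121 CPM (1.76), and the BMP target Id3 was the lower one (-1.11). Of 13 YAP and TEAD genes, 5 were higher and none lower (the same with TMM). F3 (tissue factor) was at 817 CPM in 86 cells (3.82, 3.65 to 3.99), the receptor kinase Axl at 43.9 (5.25) and Cyr61 at 114 (2.23).

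Among 20 airway and squamous transcription factors, 9 were higher and 4 lower (6 and 5 with TMM). Ehf, an epithelial Ets factor, was at 399.7 CPM (2.65), the airway factor Sox2 at 199 CPM in 65 cells (1.51, 1.24 to 1.78) and Sox21 at 62.7 (4.52). Tfap2a, a factor of stratified epithelia, had 16 UMIs in 15 cells (4.44). Foxa2 had 3 UMIs in 2 cells against 120 CPM in ciliated cells (-3.74, -5.37 to -2.10), while its relative Foxa1 was at 161 CPM (1.78, 1.47 to 2.08). Nkx2-1, the lung lineage factor, was at 147 CPM (0.30, -0.00 to 0.60).

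Some secretory genes were abundant in basal-like cells, above their level in Krt8-high cells, and others were not. Of 8 club genes that did not choose the club cells, 1 was higher (Gsta4, 1.28) and 4 lower (0 and 4 with TMM). Cyp2f2, the club cell cytochrome P450 and, like Cbr2, one of the genes that chose the club cells, was detected in all 88 KO cells at 580 to 15270 CPM (median 4468) and summed to 4650 CPM, against 3273 in club, 4059 in goblet, 1641 in ciliated and 225 in Krt8-high cells. With every cell thinned to 1000 UMIs it was seen in 96.6% of basal-like and 5.47% of Krt8-high cells (median depths before thinning 6104 and 7671 UMIs). Cbr2, a carbonyl reductase of club cells, was at 4204 CPM against 4432 in club and 388 in Krt8-high cells. No order against club cells is read for these 2 genes, since they chose the club cells and the TMM factors (1.51 for basal-like, 0.677 for club) scale the groups apart. Scgb1a1 also had a UMI in all 88 cells, but at 2553 CPM it was below the 12160 CPM of Krt8-high cells. Its thinned share was 63.6% against 65.9%. Whether Krt8-high cells make Scgb1a1 was not tested, and detection alone is not read as expression in basal-like cells. The highest basal-like cell, at 68860 CPM, held 36.3% of the Scgb1a1 UMIs and 5 cells held 62.3%, while the median cell was at 1063. Sftpc, an alveolar type 2 gene with UMIs in 87 of 88 cells, likewise had a thinned share of 63.6% against 66.8% in ciliated cells, with 69.1% of its UMIs in 5 cells and a median of 886 CPM.

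Antimicrobial secretory genes came from a minority of cells. Bpifa1 (SPLUNC1) was at 7428 CPM and came from 42 of 88 KO cells, with 11 cells over 10000 CPM, a highest cell at 102300 and 71.6% of the UMIs in 5 cells. Scgb3a2 was found in 53 cells, with 60.1% of its UMIs in 1 cell. Reg3g, an antimicrobial lectin, was found in 26 cells with 86.3% of its UMIs in 5. Bpifa1 and Scgb3a2 levels went together over the 88 cells (rho 0.53). In the 33 KO cells without both Krt5 and Trp63, Bpifa1 was at 17610 CPM and Ltf (lactoferrin) at 2773, against 1559 and 111 in the 55 cells with both. Abi3bp ran the other way, at 840.1 and 1698 CPM. A few cells carried the values of the 33. The 3 cells with neither gene held 317 of their 647 Ltf UMIs, and 1 cell held 1752 of their 4108 Bpifa1 UMIs. Of 5 goblet genes outside the goblet gate, 2 were higher (Bpifa1 at 1.77 and the mucin Muc16, with 15 UMIs, at 1.99) and 2 lower (0 and 3 with TMM).

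**Figure D5:**
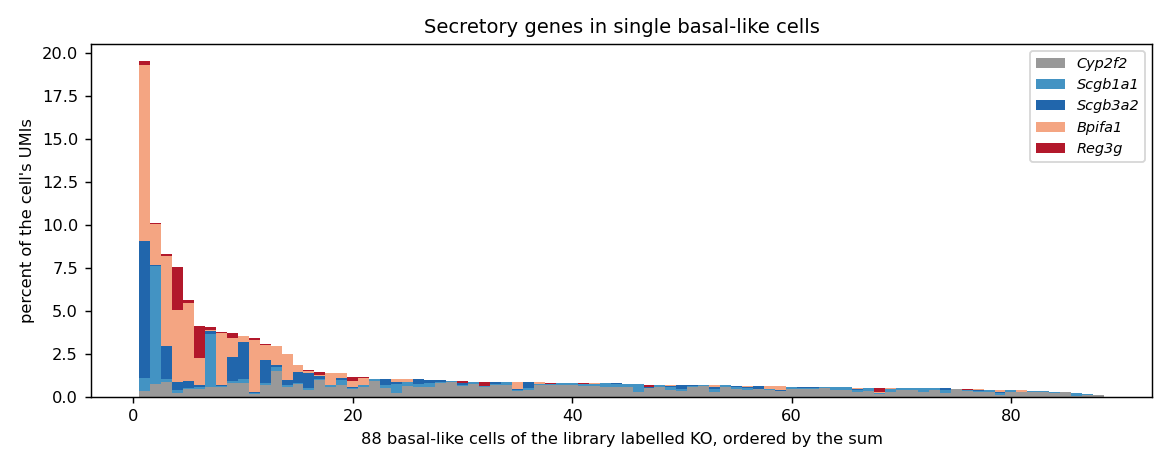
Percent of each KO basal-like cell's UMIs taken by Cyp2f2, Scgb1a1, Scgb3a2, Bpifa1 and Reg3g, stacked, with the 88 cells in order of the sum. The sum runs from 0.114% to 19.6% with a median of 0.760%, and 26 cells exceed 1%.

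Few basal-like cells carried mitotic genes. At least 3 of 16 G2/M genes were detected in 4 of 88 KO cells (4.55%, 1.25 to 11.2), 29 of 394 club, 3 of 106 goblet and 28 of 920 ciliated cells, and in 0 of 7 WT basal-like cells, which allows up to 41.0%. Mki67 was found in 5 KO basal-like cells and Top2a in 7, and 1 cell gave 67.5% of the Mki67 UMIs. As a sum, 15 of 16 G2/M genes were past 2-fold higher than in other airway cells and none lower (11 and 0 with TMM). Without those 4 cells 1 was higher and 10 lower, and the list's median went from 2.18 to -1.36, but the cells were taken out by these same genes and from the basal-like group alone, so that no direction is read from it. Of 15 G1/S genes, 10 were higher and none lower (2 and 2 with TMM).

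Markers of other cell types were counted as a check on the gate. Among 8 measured mesenchymal genes, Dcn, Fn1 (107 CPM, 4.45) and Sparc (143 CPM, 1.28) were past 2-fold higher and 1 was lower (2 and 4 with TMM). The listed genes summed to 1174 CPM in KO basal-like cells, of which Dcn was the most abundant, while the defining fibroblast genes Lum, Pdgfra and Pdgfrb had 0 UMIs and Col1a1 had 2. Cells with Col1a2 had been left out by the gate. Dcn went with Apoe (rho 0.65) and Abi3bp (0.39) across the 88 cells, and Apoe, the lipid carrier, was at 1379 CPM in 70 cells against 34.1 in club, 19.6 in goblet and 34.3 in ciliated cells. Of 9 immune genes, 3 were higher and 3 lower (1 and 5 with TMM), with a sum of 130.1 CPM in which Cd74 was the most abundant, while Tyrobp, Laptm5, Coro1a, Cd3e and Cd79a had 0 UMIs. Of 8 endothelial genes, 0 were higher and 2 lower (the same with TMM), summing to 6.27 CPM, with Cdh5, Kdr, Tie1 and Emcn at 0 UMIs. Of 4 myoepithelial genes, 3 were higher and none lower (1 and 0 with TMM), on 2 to 5 UMIs a gene, with Myh11 and Cnn1 at 0. Of 5 mesothelial genes, 3 were higher and 1 lower (2 and 1 with TMM), with a sum of 406 CPM. Msln was the most abundant at 202 CPM in 21 cells, Upk1b was at 169 in 46 cells, and Upk3b and Lrrn4 had 0 UMIs. The part of other cell types in these levels was not tested.

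One KO basal-like cell carried neuroendocrine genes. With 11428 UMIs it held the 16 Calca and 21 Resp18 UMIs of the whole group beside 9 of Krt15, 3 of Trp63 and 0 of Krt5. Of 8 measured neuroendocrine, tuft and ionocyte genes, 6 were higher and 1 lower (3 and 1 with TMM), and the values of Calca and Resp18 rested on that cell. The tuft gene Trpm5 and the ionocyte gene Foxi1 had 0 UMIs.

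Alveolar genes were low or mixed. Of 11 alveolar type 2 genes, none was higher and 5 lower (0 and 9 with TMM), with Sftpa1 at 472 CPM against 2645 in club cells (-2.04). Of 12 alveolar type 1 genes, 5 were higher and 6 lower (3 and 6 with TMM). Aqp5, Cav1 and Pdpn, which basal cells also express, were among those higher, while the defining gene Ager was at 58.0 CPM against 3253 in Krt8-high cells. Of 13 genes of the transitional alveolar state, 4 were higher and 4 lower (2 and 6 with TMM), and Clu (42.3 CPM against 1883) and Cdkn1a (84.6 against 1928) were far below the Krt8-high cells.

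The genotype comparison rests on the 7 WT cells, and beyond a few named genes it is given by counts. Of 7886 genes with at least 10 UMIs over the basal-like cells of both libraries, 1519 (19.3%) were at least 2-fold higher in KO and 931 (11.8%) at least 2-fold lower, but 929 of the 1519 had 0 UMIs in WT, where the sum of the 7 cells was 41814 UMIs against 638013. The interval stayed beyond 0 for 89 of the higher and 177 of the lower genes. With TMM factors the counts were 2199 higher and 569 lower, and the median gene moved from 0.16 to 0.50. Without the deepest WT cell (16526 UMIs) the counts were 1005 higher and 1414 lower. Bpifa1 was at 7428 CPM in KO and 24610 in WT (-1.73, -1.83 to -1.63), with 875 of the 1029 WT UMIs in 1 cell. Without that cell WT stood at 6090 CPM, below the KO level, and KO without its own highest cell stood at 4811. No direction between genotypes is therefore read for Bpifa1.

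Ltf had 692 UMIs in 22 of 88 KO cells (1085 CPM) and 1 UMI in WT, a log2 ratio of 5.50 (3.02 to 10.81). The 3 KO cells with neither Krt5 nor Trp63 held 317 of the 692 UMIs. Lcn2 (lipocalin-2) had 283 UMIs in 22 KO cells and none in WT, at least 6.18-fold higher in summed UMIs. Reg3g had 1074 UMIs in KO and 4 in WT (4.14, 2.78 to 6.02). Of the KO UMIs 86.3% lay in 5 cells, and the 4 WT UMIs came from 1 cell. The interval does not cover this spread between cells, so no direction between genotypes is read for Reg3g. Muc1, a membrane mucin, had 100 UMIs in 40 KO cells and none in WT, at least 2.19-fold higher in summed UMIs. The bounds of Lcn2 and Muc1 leave out the spread between cells, and 7 WT cells are too few to set a smallest fold between genotypes. Ltf and Lcn2 were each found in 22 of the 88 KO cells, and Ltf in 1 of 7 WT cells. On the lower side stood Scd2, a fatty acid desaturase (90.9 CPM in KO against 430.5 in WT, -2.24, -3.03 to -1.39), Nme1, a nucleoside diphosphate kinase (-2.23, -2.91 to -1.51), Ssr1 of the translocon (-2.14), Cd74, the MHC class II invariant chain (-1.79), and Tmbim1 (-1.73).

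For most basal genes the counting error left a genotype difference undetectable at this depth. Of 15 basal genes measured in both, 2 were past 2-fold higher in KO and 1 lower, beside 19.3% and 11.8% of all genes, with a median of -0.11 beside 0.16. The lower one was Cav1 (-1.20, -1.72 to -0.63), and the interval of Wnt4 (-0.89, -1.46 to -0.27) also lay below 0. Dapl1 gave -0.11 (-0.63 to 0.45), Abi3bp -0.00 (-0.39 to 0.41) and Dcn 0.14 (-0.38 to 0.71). The interval of Cyp2f2, a club gene (0.25, 0.02 to 0.48), lay above 0. Aqp3 gave -0.57 (-0.95 to -0.17), with WT cells at 0 to 2398 CPM and KO cells at 0 to 4216. Of 12 hemidesmosome and laminin-332 genes, 1 was higher in KO and none lower. Sftpc, an alveolar type 2 gene, was at 3025 CPM in KO basal-like cells (1921 without the highest cell) and 95.7 in WT, and at 2056 and 265 in the ciliated cells of the same libraries. The basal-like gate held Sftpc under 5% of UMIs, so its values describe cells chosen by it. Of 10 alveolar type 2 genes measured in both, 7 were past 2-fold higher in KO basal-like cells and none lower. Of the list's 1301 UMIs in KO, 36.1% came from 1 cell and 63.2% from 5, and Slc34a2 and Lamp3, both among the 7, had 0 UMIs in WT. The part of free or alveolar RNA in the genotype ratios was not tested.

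Read cell by cell, the 7 WT cells were unlike each other. Their depths were 2040, 3283, 3298, 3972, 4353, 8342 and 16526 UMIs. The deepest held 49 of the 74 Krt5, 91 of the 193 Krt15 and 875 of the 1029 Bpifa1 UMIs. Without it Krt5 in WT went from 1770 to 989 CPM. The shallowest had no Krt5 and 2 Krt15 UMIs. Abi3bp was found in 6 of the 7 with 4 to 25 UMIs and Trp63 in 6 with 1 to 15.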

How the data were processed

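The deposited values were UMI counts per gene and cell barcode in 1 matrix per library (Pclaf WT and Pclaf KO, 1 library each). Per the labels, the authors ran Cell Ranger 3.1.0 with STAR on the mouse genome mm10, while the matrix headers name Cell Ranger 5.0.0. Duplicate reads of a molecule were collapsed by UMI, and no normalization or cell filter beyond the cell call of the deposited matrix was found. Each of the 31053 genes was kept by its own identifier.

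Barcodes with more than 200 and fewer than 5000 genes and under 20% mitochondrial UMIs were kept, as the study's filter has it. The members and the gene lists were chosen with earlier results of these data known. UMIs of a gate were summed per library and given as CPM (scaled to a total of 1000000) with exact Poisson intervals, shares with Clopper-Pearson intervals, all at 95%. Club cells had Scgb1a1 at 1% of UMIs or more with further club genes, Krt8-high cells 5 or more Krt8 UMIs with at least 2 of Cldn4, Sfn, Hbegf, Areg and Itgb6. Other airway cells were the unweighted mean of the club, goblet and ciliated CPM. Genes needed at least 10 UMIs over both sides, a gene at 0 UMIs entered the log2 ratio with 0.5 UMI, and "at least" folds set it to 3 counts in each gate at 0. A gene was counted as higher or lower past 2-fold. Genes named from the airway comparison were the 15 highest and 10 lowest ratios among genes with at least 50 UMIs that were seen in at least 10% of the cells of the higher side, without genes of the gates, mitochondrial and ribosomal protein genes. From the genotype comparison they were the 5 highest and 5 lowest with at least 50 UMIs, and otherwise genes of the lists. A few genes that meet these rules are not reported here. For detection shares each cell was thinned to 1000 UMIs (seed 7). With 1 library per genotype no test was possible.

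Scrublet, as run in scanpy 1.11.5, called 2342 of 30187 WT cells and 422 of 15637 KO cells doublets (7.76% and 2.70%), none of them a basal-like cell, and the calls were not used as a filter. The expected shares were higher, 24.15% in WT and 12.51% in KO. The calls therefore cannot show that the basal-like cells hold no doublets. Software was Python 3.11.15, numpy 2.4.6, scipy 1.17.1, pandas 2.3.3, R 4.3.3 and edgeR 4.0.16 (TMM factors). The summing and ratio steps were tested on simulated data. Alternatives changed the marker minimum, the gate, the cell filters, the scaling, the UMI minimum and the depth.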

Additional observations from a re-analysis of the deposited data

Results flagged for a closer look

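Cells with 2 or more of the 5 selecting genes also lay outside the basal-like gate. In KO they were 30 kept cells, of which 8 had too much Sftpc, 7 had Foxj1, 7 had neither Epcam nor Krt8, 6 had Col1a2, 2 had Ptprc and 1 had Muc5b, and a cell may count under more than one of these. Together these 30 had Krt5 at 634 and Abi3bp at 1513 CPM, close to the 591 and 1384 of the basal-like cells, and Krt15 at 1785 and Aqp3 at 683, below their 2785 and 1014. Sftpc was at 36350 CPM. The 7 with Foxj1 had Aqp3 at 1024 and Dapl1 at 1170 CPM. Another 11 KO cells with 2 or more of the genes were over the limit on detected genes, a median of 21950 UMIs, Krt5 at 252 and Abi3bp at 881 CPM. In WT there were 5 such kept cells, with Krt5 at 626, Krt15 at 1683 and Abi3bp at 1096 CPM, and 1 cell over the gene limit with Krt15 at 114 and Scgb1a1 at 65070 CPM. Whether these are basal cells, mixed droplets or other cells was not tested.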

How the results depend on the processing

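Members stayed at 7 in WT under every gate tried and ran from 66 (at least 3 of 5 selecting genes) to 93 (no upper limit on genes) in KO. The genes that the naming rules gave for both comparisons, chosen for the size of their ratios, kept their direction and stayed past 2-fold in 500 of 500 gene-by-alternative values, of which 23 lay outside the interval of the reported value. Of 2136 list counts and medians under the alternatives, 285 moved by over 1.5 times or, for medians, by 0.5 or more on the log2 scale. With at least 3 selecting genes the KO share of airway cells was 4.44% and cells with both Krt5 and Trp63 were 83.3%, and with thinning to 1000 UMIs the latter were 21.6%. Against airway cells, 1516 genes were higher and 3206 lower with TMM factors, and 8618 were higher with no minimum of UMIs. For KO against WT, 308 were higher and 280.0 lower with thinning, 380.0 and 103 with at least 50 UMIs, 569 lower with TMM factors and 4966 lower with no minimum. Of the alternatives chosen after seeing the data, leaving out the deepest WT cell gave 1005 higher and 1414 lower, and leaving out cells rich in Bpifa1, Scgb3a2 and Reg3g gave 859 higher. Some list medians changed sign, and not all of these are given here. With at least 3 selecting genes the median went to -0.38 for goblet genes (KO over WT). With the same gate it went to -0.43 for neuroendocrine, tuft and ionocyte genes (over airway). Without the 4 cells with mitotic genes it went to -1.36 for G2/M genes (over airway). That alternative was also chosen after seeing the data, and the cells were taken out by these genes in basal-like cells alone. With no minimum the median went to -0.61 for chemokines (KO over WT). The median of all genes over airway also changed sign with TMM factors, from 0.46 to -0.20. Fewer genes or cells enter under the minimum of 50 UMIs, thinning and the stricter gates, and other causes were not tested. No paired analysis was possible because each genotype had 1 library. The genotype ratios rest on the 41814 UMIs of 7 WT cells.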

Other observations

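Of all 14416 genes tested, 27.0% were higher and 14.7% lower (1516 and 3206 genes with TMM), and the counts of each list stand beside these. Immediate early genes, which respond quickly to stimuli and to tissue dissociation, were higher in KO basal-like cells than in other KO airway cells for 12 of 14 measured and lower for none (5 and 1 with TMM). Fosb was at 337 CPM (3.66, 3.39 to 3.93), Jun at 739.8 (2.02, 1.87 to 2.17) and Fos at 697.5 (1.78, 1.63 to 1.93). Calcium-binding S100 proteins and annexins were higher for 8 of 13 and lower for none (6 and 1 with TMM), with S100a6 at 4776 CPM (1.98) and S100a14 at 212 (3.00). The summed level of this list was 11050 CPM in basal-like and 20570 in Krt8-high cells. MHC class II genes were lower for 7 of 7 with either scaling, with Cd74 at 69.0 CPM against 61.7 in goblet, 690 in ciliated and 1277 in Krt8-high cells. Interferon-stimulated genes split, with 2 of 12 higher and 4 lower (0 and 6 with TMM). Ifitm3 was at 1531 CPM (1.42) and Isg15 at 9.40 (-2.23). Ifitm1, outside that list, was found in 85 of the 88 cells at 1572 CPM (3.30).

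Among 16 glutathione and detoxification genes 4 were higher, a share near that of all genes, and 6 lower (0 and 9 with TMM), with Gsto1 at 1732 CPM (1.57) and Gstm2 at 462 (1.90) on the higher side. Among 13 p53 targets 4 were higher and 4 lower (2 and 5 with TMM), near the shares of all genes on the higher side, with Perp at 414 CPM (3.57) and Mdm2 at 37.6 (-1.31). Chemokines and cytokines were mostly at a few UMIs. Of 12 measured 3 were higher and 1 lower (2 and 6 with TMM), and Csf1, a macrophage growth factor, was the most abundant at 40.8 CPM in 19 cells (4.38). None of 5 nuclear-retained RNAs was past 2-fold with either scaling.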
